A study of Mus musculus with 4 samples.

Results

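The genes described here belong to the Atf4 pathway, the arm of the integrated stress response that adapts amino acid supply. They were chosen by symbol: the transcription factors Atf4, Atf5 and Ddit3, their regulators and targets Trib3, Chac1 and Asns, the serine synthesis enzymes Phgdh and Psat1, and the mitochondrial folate enzymes Shmt2 and Mthfd2. Of these 10 symbols, 8 were found among the 11160 features of the expression table and all 8 passed the filter on low values. Trib3 and Chac1 were not found, so their levels were not analysed here, and they enter only the promoter search.

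Total RNA came from neural progenitor cells of the dorsal telencephalon of C57BL/6J mouse embryos at embryonic day 12.5, which the labels also call Neuroephitelial cells, grown as neurospheres in medium with fibroblast growth factor. There were 2 libraries labelled Mcph1 KO, from full Mcph1 knockouts (Mcph1 encodes microcephalin, which restrains chromosome condensation), and 2 wild-type (WT) libraries. Each telencephalon was cultured on its own for a short time, cultures of the same genotype were then pooled by 2 or 3, and twin RNA samples were pooled again, so a library is a pool and p-values measure the spread between pools. The reads recovered from the deposited values came to 10936719 for KO 1, 5975471 for KO 2, 7109365 for WT 1 and 22347416 for WT 2. The size of 1 read was taken from the spacing of the low values, and for WT 2 it is less certain, since its smallest value was 2 such steps, against 1 step in KO 1, KO 2 and WT 1. The CPM levels and the limma test do not use it, whereas the WT 2 total and the tests on recovered reads do. Mcph1 itself measured 19.5 and 20.3 CPM in KO-labelled cells, against 21.1 and 21.6 CPM in WT (limma log2 fold change -0.10 with SE 0.24; adjusted p = 0.921). A level summed over all exons would leave a deleted exon unseen, and how reads were counted is not given in the sources used here. This level therefore does not check the label, and the first group is called the KO-labelled libraries. CPM here means deposited values scaled between libraries by TMM (edgeR) and then divided by 1 common factor, so library totals can still differ. A fold change is KO-labelled over WT on the log2(value + 1) scale.

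As background, Atf4 is a basic leucine zipper transcription factor whose mRNA is translated more efficiently when the initiation factor eIF2 is phosphorylated by one of its stress-sensing kinases. Atf4 protein then binds a composite C/EBP-ATF response element (CARE) and raises genes of amino acid import and synthesis, among them the enzymes that make serine from a glycolytic intermediate. Serine feeds the folate cycle that supplies purine and thymidine synthesis in dividing cells, and inherited loss of the serine synthesis enzymes causes microcephaly in people. An mRNA level does not report how much Atf4 protein is made.

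Promoters are shown for Phgdh and Psat1, which had the lowest fold changes of the 8 measured genes, and for Asns, a classical target whose window holds the letters of the Atf4 response element. In these 3 genes the KO-labelled libraries lay below WT without overlap, as they did in 20.0% of all tested features. All 10 symbols matched RefSeq promoter windows on GRCm38.p6, which run from 250 bases before the annotated start to 50 after it. They were searched on both strands for the CARE letters TGATGNAA (TTNCATCA on the other strand), the E-box CACGTG and the cyclic AMP response element TGACGTCA. Capitals mark a CARE match.
Asns promoter, chr6:7693160-7693459, minus strand: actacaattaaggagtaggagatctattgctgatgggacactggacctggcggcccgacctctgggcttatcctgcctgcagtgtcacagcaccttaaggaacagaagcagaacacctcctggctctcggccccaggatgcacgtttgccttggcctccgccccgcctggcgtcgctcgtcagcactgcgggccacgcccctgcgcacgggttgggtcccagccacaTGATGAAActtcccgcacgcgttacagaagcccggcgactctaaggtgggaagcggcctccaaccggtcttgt
Phgdh promoter, chr3:98339920-98340219, minus strand: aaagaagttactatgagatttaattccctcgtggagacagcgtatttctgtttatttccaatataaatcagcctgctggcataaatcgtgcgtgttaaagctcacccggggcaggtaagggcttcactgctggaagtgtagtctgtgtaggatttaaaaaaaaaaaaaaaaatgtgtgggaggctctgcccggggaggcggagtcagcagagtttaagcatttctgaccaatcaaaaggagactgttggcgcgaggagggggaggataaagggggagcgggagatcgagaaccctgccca
Psat1 promoter, chr19:15925010-15925309, minus strand: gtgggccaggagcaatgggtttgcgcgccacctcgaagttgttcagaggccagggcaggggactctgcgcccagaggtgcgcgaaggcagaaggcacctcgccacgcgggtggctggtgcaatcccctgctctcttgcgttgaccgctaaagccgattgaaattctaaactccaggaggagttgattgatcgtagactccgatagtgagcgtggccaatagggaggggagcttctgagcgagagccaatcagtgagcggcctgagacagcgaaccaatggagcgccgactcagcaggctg
The CARE letters were found in 3 of the 10 genes. In Asns they begin 23 bases before the start site, on the strand shown. The others were Trib3 and Chac1, whose levels were not analysed. Of all 32851 promoter windows of this length, 3.97% held the CARE letters, 7.15% the E-box and 1.79% the cyclic AMP response element. None of the 10 genes held an E-box or a cyclic AMP response element in its window. For Psat1, which has a second annotated window, the one with the more upstream start is shown, and neither window held a match. These matches describe letters in a window of 300 bases only.

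Phgdh and Psat1, the first and second enzymes of serine synthesis, had the lowest fold changes of the 8 measured genes, at 0.561 and 0.515 of the WT level. Neither passed the test over all features. Phgdh, the dehydrogenase that commits a glycolytic intermediate to serine, measured 117 CPM (KO 1) and 113 CPM (KO 2), against 174 CPM (WT 1) and 243 CPM (WT 2). The KO-labelled libraries lay below WT without overlap and close to each other, whereas the WT libraries differed from each other more. This is a log2 fold change of -0.83 with an SE of 0.25 and a 95% interval from -1.44 to -0.23 (limma, adjusted p = 0.655). Psat1, the aminotransferase of the next step, measured 80.4 CPM (KO 1) and 77.7 CPM (KO 2), against 121 CPM (WT 1) and 195 CPM (WT 2). Its groups were ordered in the same way, with WT 2 highest. This is a log2 fold change of -0.96 with an SE of 0.29 and a 95% interval from -1.65 to -0.27 (limma, adjusted p = 0.655). Only 1.74% of the tested features had a lower fold change than Psat1, and 2.68% a lower one than Phgdh. The 2 KO-labelled pools differed in Phgdh by 0.049 on the log2 scale, against 0.49 between the WT pools. The same gaps for Psat1 were 0.049 and 0.68, where the median gap over all tested features was 0.34 between the KO-labelled pools and 0.27 between the WT pools.

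The ratio of Psat1 to Phgdh within a library, which does not depend on how libraries are scaled, was 0.685 in KO 1 and 0.685 in KO 2, against 0.696 in WT 1 and 0.799 in WT 2. It was nearly the same in KO 1, KO 2 and WT 1, and higher in WT 2. Without WT 2, which held the highest level of both, the fold changes were -0.59 for Phgdh and -0.62 for Psat1. Without WT 1 they were -1.08 and -1.30. Phgdh has 9 processed pseudogenes that match its transcript at 95% identity or more over at least 75 bases in the GENCODE M21 transcripts, with Gm7901 at 98.8% over 1597 bases, so its count is uncertain. No transcript of another gene matched Psat1 at that identity.

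Psph, the phosphatase of the last step of serine synthesis, is not among the 10 genes but completes their pathway. It measured 40.8 CPM (KO 1) and 48.9 CPM (KO 2), against 120 CPM (WT 1) and 68.7 CPM (WT 2). The groups again did not overlap, but here WT 1 was the highest library. This is a log2 fold change of -1.02 with an SE of 0.32 and a 95% interval from -1.79 to -0.25 (limma, adjusted p = 0.655). Without WT 1 it was -0.62 and without WT 2 it was -1.42. In GENCODE M21 its exons overlap a transcript of Cct6a on the opposite strand over 452 bases. The library kit keeps strand, but whether the counting used it is not given in the sources used here.

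**Figure D1:**
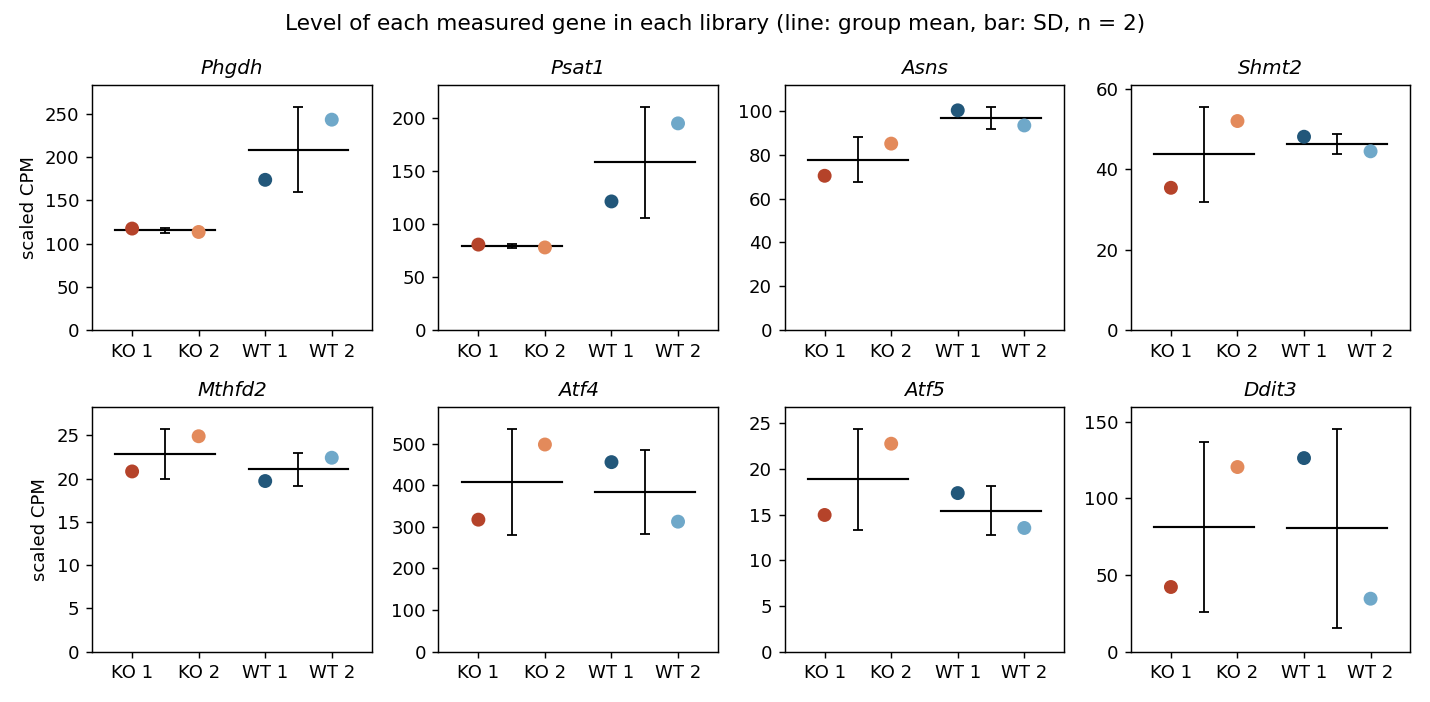
Level of each of the 8 measured genes in scaled CPM (vertical axis from 0) in the libraries KO 1, KO 2, WT 1 and WT 2, with the group mean as a line and the SD as a bar (n = 2 each). Phgdh, Psat1 and Asns lie lower in both KO-labelled libraries, while Ddit3 has 42.1 CPM (KO 1) and 120 CPM (KO 2), against 126 CPM (WT 1) and 34.5 CPM (WT 2).

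Asns, which makes asparagine from aspartate and is a classical Atf4 target, measured 70.4 CPM (KO 1) and 85.1 CPM (KO 2), against 100.4 CPM (WT 1) and 93.4 CPM (WT 2). The groups did not overlap, but KO 2 lay nearer to WT 2 than to KO 1. This is a log2 fold change of -0.32 with an SE of 0.23 and a 95% interval from -0.87 to 0.23 (limma, adjusted p = 0.717). It ranged from -0.47 without KO 2 to -0.19 without KO 1.

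The mitochondrial folate enzymes did not share the pattern of the serine synthesis enzymes. Shmt2, which transfers a carbon unit of serine to folate in the mitochondrion, measured 35.4 CPM (KO 1) and 52.1 CPM (KO 2), against 48.2 CPM (WT 1) and 44.5 CPM (WT 2). KO 1 was the lowest and KO 2 the highest library, so the groups overlapped (limma log2 fold change -0.11 with SE 0.27, 95% interval from -0.76 to 0.54; adjusted p = 0.926). Mthfd2, the next enzyme of that pathway, measured 20.8 CPM (KO 1) and 24.9 CPM (KO 2), against 19.7 CPM (WT 1) and 22.4 CPM (WT 2). Its highest and lowest libraries differed 1.26-fold, the smallest such ratio of the 8 genes, and the limma log2 fold change was 0.11 with an SE of 0.25 and an interval from -0.50 to 0.73 (adjusted p = 0.912). A difference of up to 1.65-fold upward is thus within the interval for Mthfd2.

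The 3 transcription factors had group means close to each other and libraries far apart. Atf4 measured 317 CPM (KO 1) and 498 CPM (KO 2), against 456 CPM (WT 1) and 313 CPM (WT 2). KO 2 and WT 1 were high and KO 1 and WT 2 low, so each group held a high and a low library (limma log2 fold change 0.08 with SE 0.33, 95% interval from -0.71 to 0.86; adjusted p = 0.963). Atf5, a related factor that Atf4 induces, measured 15.0 CPM (KO 1) and 22.8 CPM (KO 2), against 17.4 CPM (WT 1) and 13.5 CPM (WT 2). The order of its libraries was the same within each group, and the log2 fold change was 0.27 (SE 0.32, adjusted p = 0.820 by limma). Ddit3, which encodes the stress factor CHOP, measured 42.1 CPM (KO 1) and 120 CPM (KO 2), against 126 CPM (WT 1) and 34.5 CPM (WT 2). It was 2.86-fold higher in KO 2 than in KO 1 and 3.66-fold higher in WT 1 than in WT 2. This is a log2 fold change of 0.11 with an SE of 0.71 and a 95% interval from -1.59 to 1.81 (limma, adjusted p = 0.977), so changes of 3-fold in either direction lie within the interval.

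The gap of Ddit3 between the WT pools was larger than that of 99.5% of tested features, and its gap between the KO-labelled pools larger than that of 96.7%. The corresponding shares for Atf4 were 79.5% and 77.1%. Direction for these factors followed the library left out: without KO 1 the fold changes were 0.40 for Atf4, 0.57 for Atf5 and 0.87 for Ddit3, and without KO 2 they were -0.26, -0.04 and -0.66. They were 0.35, 0.44 and 1.04 without WT 1, and -0.20, 0.09 and -0.82 without WT 2. KO 2 lay above KO 1 and WT 1 above WT 2 for 5 of the 8 genes, and for 29.7% of all tested features. Exons of Ddit3 overlap those of Mars over 68 bases on the opposite strand, and exons of Atf5 overlap those of Nup62 and Il4i1 over 82 bases.

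**Figure D2:**
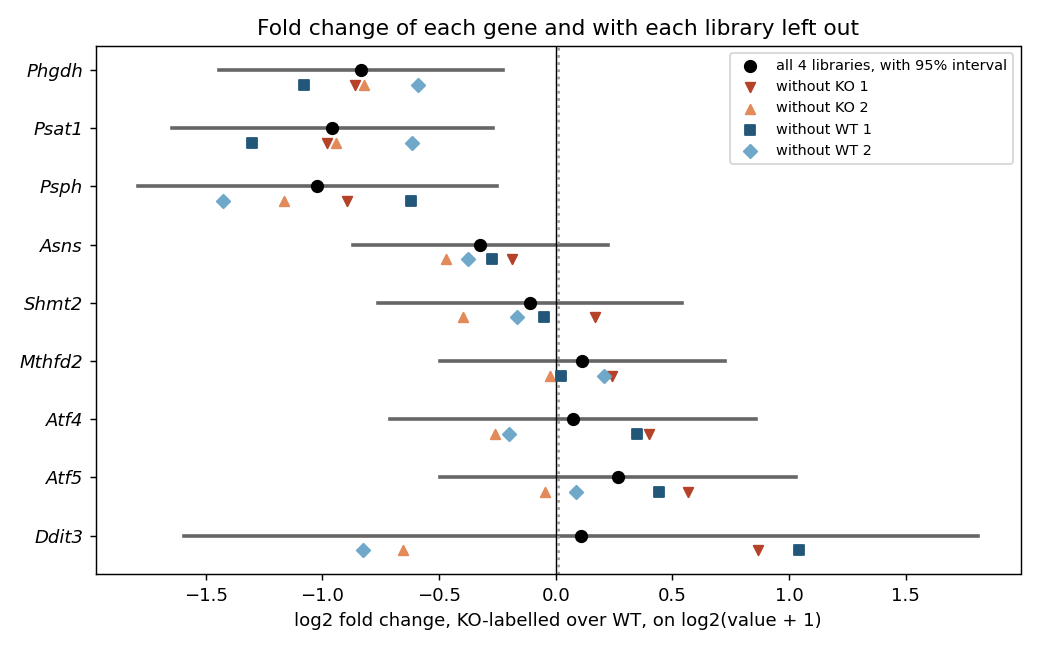
Log2 fold change of KO-labelled over WT libraries (horizontal axis) for the 8 measured genes and Psph, with black points for all 4 libraries, grey bars for the 95% interval and coloured points for fits with 1 library left out. Phgdh, Psat1, Psph and Asns stay below 0 in every such fit, while Atf4, Atf5, Ddit3, Shmt2 and Mthfd2 lie on both sides of 0.

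Of the 8 measured genes limma called 0 higher and 0 lower at an adjusted p under 0.05, and over all 10959 tested features it called 0% in either direction. At an unadjusted p under 0.05 there were 2 of the 8, Phgdh and Psat1, both lower, where 4.01% of all features were lower and 3.58% higher at that p. Without WT 2 there were 0. The tests on recovered reads (DESeq2, edgeR's quasi-likelihood test and limma-voom) also called 0 of the 8 genes. DESeq2 gave no adjusted p for Atf5, Shmt2 and Mthfd2, so it could not call these. The adjusted p by DESeq2 was 0.251 for Psat1 and 0.287 for Phgdh. The groups did not overlap, with the KO-labelled libraries lower, for 3 of the 8 genes and 20.0% of all tested features. With the KO-labelled libraries higher, the groups did not overlap for 0 of the 8 and 21.1% of all tested features. The median log2 fold change of the 8 genes was -0.02, beside 0.01 for all tested features, with 4 estimates above and 4 below 0. With upper quartile scaling it was 0.02. That median was -0.43 without KO 2 and 0.21 without KO 1.

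Per transcript length, Atf4 was the most abundant of the 8, at 236 ± 74.1 CPM per kb in the KO-labelled libraries and 223 ± 58.7 CPM per kb in WT (SD, n = 2 each), on the longest coding transcript of GENCODE M21. In WT, Phgdh followed at 110 ± 26.0 and Ddit3 at 90.3 ± 72.8 CPM per kb, 2 neighbours that do not differ beyond their spread. Psat1 at 60.3 ± 19.9 and Asns at 48.1 ± 2.42 CPM per kb overlapped likewise. Shmt2 at 20.2 ± 1.12 CPM per kb stood clear of Mthfd2 at 10.1 ± 0.913, and Mthfd2 overlapped Atf5 at 8.50 ± 1.49. In the KO-labelled libraries the order differed in 2 places. Asns at 38.6 ± 5.16 CPM per kb stood above Psat1 at 30.2 ± 0.732, and Ddit3 at 91.3 ± 62.1 stood above Phgdh at 60.9 ± 1.47 CPM per kb with overlapping spreads.

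The other genes of serine, glycine and folate metabolism had mostly negative estimates without a call. Of 20 listed, 19 were measured and 0 passed the limma test in either direction, with 14 estimates below and 5 above 0 and a median log2 fold change of -0.17. The KO-labelled libraries lay below WT without overlap for 4 of the 19, or 21.1%, near the 20.0% of all features. Besides Psph, the genes with the smallest p were Gcsh, a carrier protein of glycine cleavage (-0.57, SE 0.25), Cbs, which draws serine into cysteine synthesis (-0.70, SE 0.34), and Aldh1l1, a folate enzyme that is also an astrocyte marker (-0.84, SE 0.41). Aldh1l1 measured 257 CPM (KO 1) and 460 CPM (KO 2), against 831 CPM (WT 1) and 456 CPM (WT 2). WT 1 was its highest library and WT 2 lay beside KO 2.

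Upstream of Atf4, all 18 listed genes of the eIF2 kinases, eIF2, its exchange factor eIF2B and its phosphatase were measured, with 0 calls. There were 10 estimates above and 8 below 0, and a median of 0.12. The KO-labelled libraries lay above WT without overlap for 6 of the 18, or 33.3%, and below for 3, or 16.7%. Over all tested features these shares were 21.1% and 20.0%. Eif2s3x, the X-linked gene of the gamma subunit of eIF2, measured 177 and 182 CPM in KO-labelled cells, against 364 and 339 CPM in WT. Its groups lay further apart than its replicates, at a log2 fold change of -0.96 (SE 0.22, unadjusted p = 0.00385, adjusted p = 0.655 by limma). DESeq2 gave it an adjusted p of 0.0900, and without single libraries it ranged from -1.02 to -0.91. As Eif2s3x escapes X inactivation, levels of Xist, the inactive X transcript, and of 3 other X-linked genes known to escape are given beside it. Xist measured 156 and 247 CPM in KO-labelled cells, against 209 and 247 CPM in WT. Kdm6a measured 87.8 and 92.4 CPM in KO-labelled cells, against 86.5 and 114 CPM in WT. Kdm5c measured 48.1 and 65.9 CPM in KO-labelled cells, against 45.5 and 52.4 CPM in WT. Ddx3x measured 736 and 601 CPM in KO-labelled cells, against 939 and 1054 CPM in WT. Whether the pools differ in the sex of their embryos was not tested. Eif2s1, which encodes the alpha subunit that the kinases phosphorylate, stood at -0.45 (SE 0.22). The phosphatase subunits had positive estimates. Ppp1r15b, which is made constitutively, measured 46.6 and 52.8 CPM in KO-labelled cells, against 37.5 and 35.6 CPM in WT (0.44, SE 0.23). Ppp1r15a, which Atf4 signalling induces, measured 57.0 CPM (KO 1) and 123 CPM (KO 2), against 67.6 CPM (WT 1) and 32.7 CPM (WT 2) (0.83, SE 0.48), with the groups overlapping.

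Of 20 other Atf4 targets and partners, 15 were measured with 0 calls, 8 estimates above and 7 below 0 and a median of 0.01. KO 2 lay above KO 1 and WT 1 above WT 2 for 9 of these 15 genes, and for 29.7% of all tested features. That order was not particular to this list. It held for 12 of the 19 other serine, glycine and folate genes, 8 of the 18 eIF2 genes and 5 of the 8 measured amino acid transporters. Of the lists described below, it held for 8 of 11 proline and aspartate genes, 9 of 20 aminoacyl-tRNA synthetases and 12 of 19 endoplasmic reticulum stress genes. The smallest p belonged to Atf6b, a relative of the stress factor Atf6 (0.46, SE 0.23), Sesn2, a stress-induced inhibitor of growth signalling (0.70, SE 0.43), Gpt2, a mitochondrial alanine aminotransferase (0.43, SE 0.34), and Rcan1, a calcineurin inhibitor (0.24, SE 0.22). Sesn2 measured 9.86 CPM (KO 1) and 22.2 CPM (KO 2), against 10.1 CPM (WT 1) and 8.14 CPM (WT 2). Its estimate rested on KO 2 (0.11 without it), as did that of Gpt2 (-0.06 without it), with 121 CPM (KO 1) and 235 CPM (KO 2), against 129 and 121 CPM in WT. Of 11 amino acid transporters 8 were measured with 0 calls, 6 estimates above 0 and a median of 0.18. Slc6a9, a glycine transporter, stood at 0.94 (SE 0.47), Slc1a4, which carries serine, at -0.45 (SE 0.25), Slc38a1 at 0.21 (SE 0.26) and Slc1a5 at 0.23 (SE 0.34), both carriers of glutamine.

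**Figure D3:**
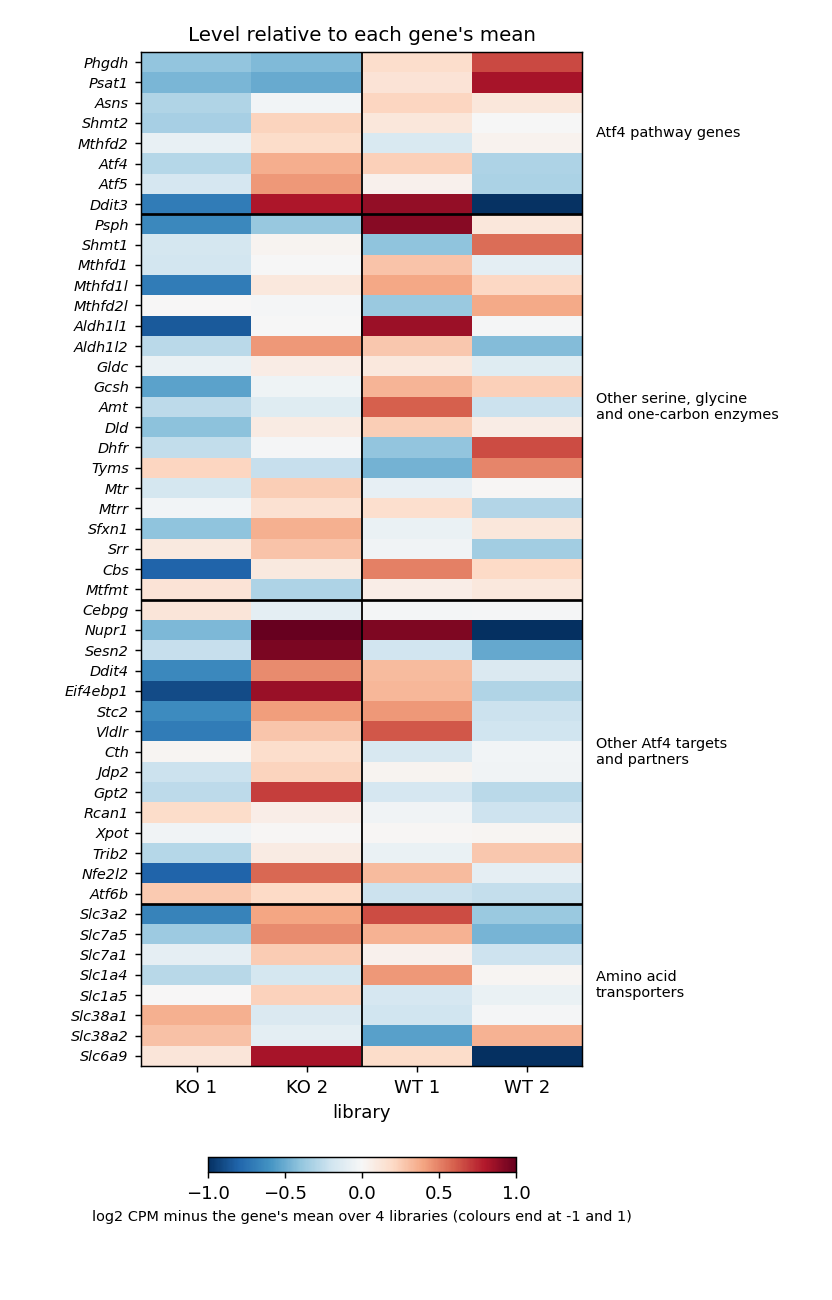
Log2 CPM of each gene (rows, grouped by list) minus its mean over the 4 libraries (columns KO 1, KO 2, WT 1 and WT 2), red for higher and blue for lower, with colours ending at -1 and 1. Phgdh and Psat1 are blue in both KO-labelled libraries, while Ddit3 is red in KO 2 and WT 1 and blue in KO 1 and WT 2.

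The remaining lists leaned low, also with 0 calls in each. All 11 measured genes of proline, aspartate and related synthesis, of 12 listed, had estimates below 0 (median -0.18), and 5 of them were lower without overlap of the groups, or 45.5%. Asrgl1, an asparaginase (-0.52, SE 0.27), Pycrl, a proline synthesis enzyme (-0.35, SE 0.23), Oat, ornithine aminotransferase (-0.43, SE 0.30), and Glud1, glutamate dehydrogenase (-0.27, SE 0.24), had the smallest p. Of the 20 cytosolic aminoacyl-tRNA synthetases, enzymes that Atf4 also induces, 18 had estimates below 0 (median -0.20) and 10, or 50.0%, were lower without overlap of the groups, both against 20.0% of all tested features. Their fold changes ranged from -0.40 to 0.27, and the smallest p belonged to Nars (-0.38, SE 0.23), Tars (-0.36, SE 0.22), Rars (-0.38, SE 0.23) and Farsb (-0.37, SE 0.24). For endoplasmic reticulum stress genes of the Atf6 and Xbp1 arms, 19 of 20 were measured, 13 estimates lay below 0 and the median was -0.14. Without overlap of the groups, 6 of the 19, or 31.6%, were lower and 1, or 5.26%, was higher. Over all tested features these shares were 20.0% and 21.1%. Hspa5, the chaperone BiP, measured 410 and 466 CPM in KO-labelled cells, against 712 and 567 CPM in WT (-0.54, SE 0.25, adjusted p = 0.659 by limma). Pdia6 (-0.40, SE 0.23) and Manf (-0.40, SE 0.24), both proteins of the reticulum's lumen, also had estimates below 0, and Ern1, the sensor kinase that splices Xbp1, stood at 0.52 (SE 0.31).

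**Figure D4:**
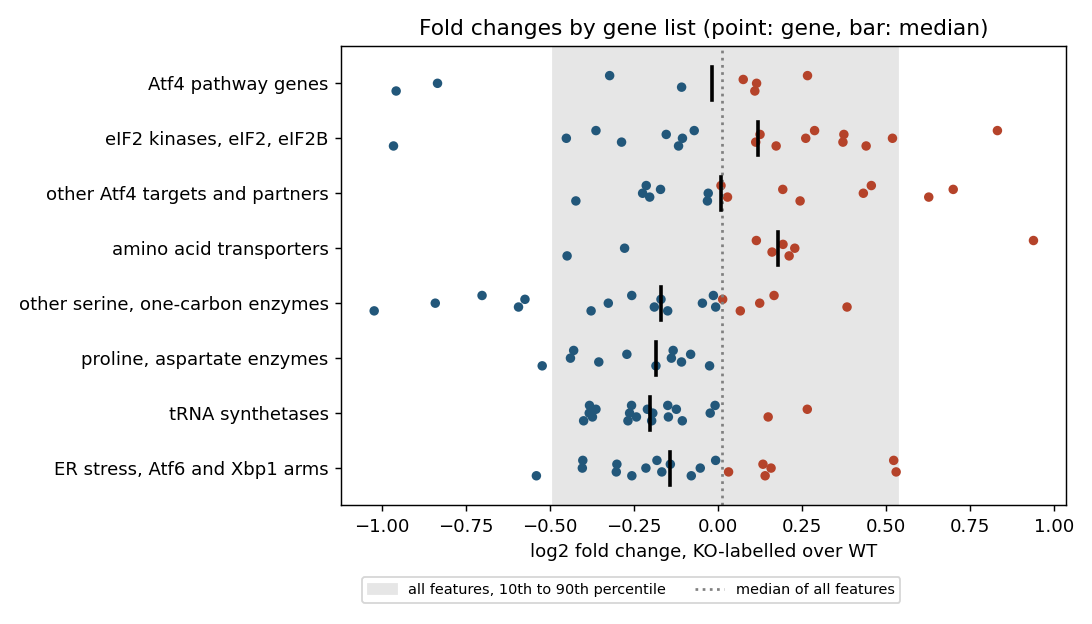
Log2 fold change of KO-labelled over WT libraries (horizontal axis) for each measured gene of each list, with the list median as a black bar, the median of all features as a dotted line and their 10th to 90th percentiles as a grey band (-0.49 to 0.54). Medians range from -0.20 for the aminoacyl-tRNA synthetases to 0.18 for the amino acid transporters, and Phgdh, Psat1, Psph and Eif2s3x are among the points left of the band.

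Markers of cell types differed between libraries beside these genes. All 10 neural progenitor markers were measured, with summed levels of 6340 and 9094 CPM in the KO-labelled libraries, against 12975 and 13284 CPM in WT. Most of that sum was Vim and Fabp7. Of the 10, 6 estimates lay below and 4 above 0, with 4 lower and 1 (Prom1) higher without overlap of the groups, beside 20.0% and 21.1% of all tested features. The 5 astrocyte markers summed to 1106 CPM (KO 1) and 1446 CPM (KO 2), against 1390 CPM (WT 1) and 568 CPM (WT 2). KO 2 lay above KO 1 and WT 1 above WT 2 for 4 of these 5, all but Aldoc, and for 29.7% of all tested features. Gfap, at 212 CPM in KO 1, 443 CPM in KO 2, 598 CPM in WT 1 and 131 CPM in WT 2, was high in KO 2 and WT 1, as Ddit3 was. Aqp4 measured 34.9 CPM (KO 1) and 42.5 CPM (KO 2), against 35.0 CPM (WT 1) and 11.2 CPM (WT 2). Aldoc was higher in KO 1 (311 CPM) than in KO 2 (262 CPM). S100b was lower without overlap, at 34.2 and 42.1 CPM in KO-labelled cells, against 47.2 and 46.7 CPM in WT. Gja1 was higher without overlap, at 514 and 657 CPM in KO-labelled cells, against 405 and 170 CPM in WT. The 10 measured of 12 neuron markers summed to 2132 CPM (KO 1) and 920 CPM (KO 2), against 961 and 1120 CPM in WT. Of these 10, 9 estimates lay above 0 (median log2 fold change 0.61), but KO 2 lay above KO 1 for 0 of the 10. Without overlap of the groups, 3 (Mapt, Syt1 and Celf4) were higher and 0 lower. In KO 2, Tubb3, Dcx, Stmn2, Neurod6 and Gap43 lay below both WT libraries, and Map2 and Snap25 lay between them. Tubb3 measured 373 CPM (KO 1) and 38.9 CPM (KO 2), against 73.2 CPM (WT 1) and 94.6 CPM (WT 2). Mapt and Syt1 had an unadjusted p under 0.05 by limma, and 0 of the 10 passed the adjusted test. The 7 oligodendrocyte lineage markers summed to 677 and 975 CPM in the KO-labelled libraries, against 1018 and 994 CPM in WT. Of the 7, 3 estimates lay above and 4 below 0, with Mbp higher and Pdgfra and Olig2 lower without overlap of the groups. An unadjusted p under 0.05 by limma was also found for Pdgfra, Fabp7 and Nes, all lower, and for Gja1, higher. None of the markers passed the adjusted test. Of 7 microglia and blood markers and 9 markers of endothelium and mesenchyme, 0 were found among the features. Fewer cells of a type and less RNA per cell cannot be told apart in these pools, and the part of cell composition in the results above was not tested.

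The 8 genes had no common profile over the 4 libraries. The root mean square difference from their median profile of centred log2 levels ranged from 0.027 for Shmt2 to 0.72 for Ddit3. Of 9788 other features with a proper symbol, those nearest to that median profile were Nudt2, Tdrkh, Snx14, Ptprz1 and Tor3a, at differences of 0.018 to 0.033, where the median over these features was 0.32. A profile of 4 libraries has near matches among so many features, and this likeness is given as a description only. Ptprz1, a receptor phosphatase of neural progenitors and glia, measured 833 and 1219 CPM in KO-labelled cells, against 1171 and 1107 CPM in WT.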

How the data were processed

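RNA was depleted of ribosomal RNA and made into strand-specific libraries, and 75-base reads were taken from 4 libraries in 1 lane, per the labels' protocols. The submitters' processing notes name STAR 2.3.0, SAMtools 0.1.19 and Picard 1.119 without roles. They also name FastQC 0.10.1 and DESeq 1.12.1. For build, annotation and filter, the sources used here give nothing. The features at 0 numbered 0 in WT 1 and 0 in WT 2, against 16 in KO 1 and 56 in KO 2. The table thus holds no feature without reads in a WT library. The deposited signal values are read counts that the authors divided by 1 factor per library, as the values show: all are whole multiples of a step (100% within 0.01 of a step). These factors leave totals that differ 4.10-fold. The values were therefore scaled by TMM (edgeR 4.0.16), filtered with filterByExpr at a minimum count of 10 and tested with limma 3.58.1 (trend, log2(value + 1), two-sided, Benjamini-Hochberg over all features, R 4.3.3), and the functions were tested on simulated data. Recovered reads also went through limma-voom, edgeR's quasi-likelihood test and DESeq2 1.42.0. A level of 3 reads is 0.274, 0.502, 0.422 and 0.134 CPM in KO 1, KO 2, WT 1 and WT 2, a limit that covers counting error only. For this limit CPM was taken over each library's recovered reads without TMM, so it is approximate beside the levels given above. Transcript lengths came from GENCODE M21 and matched 85.6% of tested features. Near copies were searched with blastn 2.17.0.

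The members and lists were chosen with earlier results of these data known. The genes named are the members, Mcph1, the 4 of each pathway list with the smallest p, and the 5 features nearest to the members' median profile. The cell type markers named singly, Xist and 3 other X-linked genes were added after values were seen. Replicate numbers were not used to pair the libraries in the main test. Over the features' deviations from group means, KO 1 correlated with WT 1 at -0.308 and with WT 2 at 0.308. With 2 libraries per group these are 1 value with opposite signs, so whether libraries shared a preparation cannot be told from it.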

Additional observations from a re-analysis of the deposited data

How the results depend on the processing

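Over the alternatives, which were other scalings, filters, pseudocounts, tests and thresholds, a replicate block, each library left out and the removal of a length and GC trend, 137 of 144 fold changes of the 8 genes kept their direction and 0 gained a call. The other threshold, the filters and the replicate blocks leave a fold change as it is, so for these the direction was fixed in advance. The 7 that reversed all came from leaving out 1 library, and the cause was not tested. Over the libraries left out, Atf4 ranged from -0.26 to 0.40, Atf5 from -0.045 to 0.57, Ddit3 from -0.82 to 1.04, Shmt2 from -0.40 to 0.17 and Mthfd2 from -0.023 to 0.24. The median of the 8 genes ranged from -0.43 to 0.21. Phgdh ranged from -1.08 to -0.59 and Psat1 from -1.30 to -0.62, and both stayed below 0 under every alternative.

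Of 612 estimates of the 34 other named genes 9 reversed, where the same settings could not change a direction. Over the libraries left out these were Slc38a1 from -0.035 to 0.45, Gpt2 from -0.056 to 0.91, Nudt2 from -0.42 to 0.12, Tdrkh from -0.36 to 0.11, Snx14 from -0.44 to 0.14, Ptprz1 from -0.46 to 0.10 and Tor3a from -0.35 to 0.15. With the length and GC trend removed Slc38a1, the glutamine carrier, was -0.016 and Nudt2 0.14. The number of features called was 0 in the main comparison, 6 with the values as deposited, whose median fold change of -1.25 was subtracted, 10 with DESeq2, and 0 to 179 with a library left out, the highest without KO 2 and 25 without KO 1. With the values as deposited, the -1.25 was subtracted from the fold changes only. The p-values behind those 6 calls were computed before that subtraction, so the calls include the difference in scale between libraries. With a library left out, 1 group has a single pool that is assumed to vary like the other. The replicate block called 0 features. The crossed replicate block, added after the data were seen, also called 0, where 1481 features had an unadjusted p under 0.05, against 473 with the block as numbered and 831 without one. The fewest reads behind any of the 8 genes in a library were 125, for Atf5 in WT 1.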
